A study of Homo sapiens with 6 samples.

Results

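The genes described here are 10 members of the cystine uptake, glutathione and thioredoxin system in MIA PaCa-2 cells: SLC7A11, SLC3A2, GCLC, GCLM, GSS, GSR, GPX1, GPX4, TXN and TXNRD1. They were chosen by name, as the entries of a deposited expression table that carry one of these symbols, and each of the 10 had an entry of its own among 18268 entries in all. The choice was made with earlier results of the same libraries known, so the calls of these 10 genes are a description and not independent evidence. MIA PaCa-2 is an established human pancreatic carcinoma line. It was grown in DMEM with fetal bovine and horse serum and carried either the empty pCDH vector (vector control, n = 3) or overexpression of the long noncoding RNA LINC00901 (n = 3). All 6 libraries came from total RNA of this line, so they show its behaviour only. Whether the replicates were grown as separate cultures is not in the labels. Every p-value below therefore reflects the scatter among these 6 libraries, part or all of which may be technical. LINC00901 itself was not analysed here, so the labels were not checked against it.

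Cystine, the oxidised dimer of cysteine, enters cells through system xc-, an exchanger that releases glutamate and is built from the light chain SLC7A11 and the heavy chain SLC3A2. Cysteine is then joined to glutamate by glutamate-cysteine ligase (catalytic subunit GCLC, modifier subunit GCLM), and glycine is added by glutathione synthetase (GSS) to give glutathione. Glutathione peroxidases (GPX1, GPX4) spend it to reduce peroxides, glutathione reductase (GSR) regenerates it with NADPH, and thioredoxin (TXN) with its reductase (TXNRD1) forms a parallel NADPH-driven relay that also reduces protein disulfides. Pancreatic carcinoma cells are known to depend on cystine import, and loss of import or of GPX4 can end in ferroptosis, a death by lipid peroxidation.

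In 3 of these enzymes the reactive residue is selenocysteine, which is read from a TGA codon that would otherwise stop translation, and in thioredoxin a pair of cysteines does the work. Their codons are shown because GPX1, GPX4 and TXN are the 3 genes that were higher in the overexpression libraries. Capitals mark the selenocysteine codon in GPX1, GPX4 and TXNRD1 and both cysteine codons in TXN, in coding sequence of GENCODE 29 on GRCh38, each within a single coding exon.
GPX1: gtggcgtccctcTGAggcaccacggtc
GPX4: gtggcctcccagTGAggcaagaccgaa
TXNRD1: caggctggctgcTGAggt
TXN: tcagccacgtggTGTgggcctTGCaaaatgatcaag
The GPX1 stretch lies at chr3:49358120-49358146 on the minus strand, with the TGA as codon 49 of 203. The GPX4 stretch lies at chr19:1105391-1105417 on the plus strand, with the TGA as codon 73 of 197. In TXNRD1, at chr12:104348401-104348418 on the plus strand, the TGA is codon 498 of 499, the last but one before the true stop. The TXN stretch lies at chr9:110251370-110251405 on the minus strand, with the cysteines at codons 32 and 35 of 105.

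The antioxidant response element, bound by the transcription factor NRF2, is the best known promoter motif of this system, so its matches are shown too. RefSeq promoters (GRCh38.p14) matched 7 of the 10 genes with 12 start sites, and SLC7A11, GSS and GSR had none in the table used. The core TGACNNNGC was searched on both strands of the 250 bases before each start, and 10.9% of 34943 such windows in the genome hold it. It was found before starts of GCLM, SLC3A2 and TXNRD1. Capitals mark the match, which is printed as its reverse complement where it lies on the strand opposite to the gene.
GCLM: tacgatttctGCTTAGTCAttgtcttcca
SLC3A2: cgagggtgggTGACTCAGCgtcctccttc
TXNRD1, first start: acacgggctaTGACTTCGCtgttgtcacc
TXNRD1, second start: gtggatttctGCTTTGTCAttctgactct
These lie at chr1:93909446-93909474 (minus strand, 34 bases upstream of the start), chr11:62881652-62881680 (plus strand, 37 bases upstream), chr12:104215670-104215698 (plus strand, 99 bases upstream) and chr12:104286920-104286948 (plus strand, 102 bases upstream). The windows of GCLC, GPX1, GPX4 and TXN held no match to these letters. The amino acid response motif TGATGNAA, searched the same way, was in 0 of the 12 windows and in 3.15% of all windows. The GC box GGGCGG, present in 42.5% of all windows, was found before starts of SLC3A2, GCLM, GPX1, GPX4, TXN and TXNRD1. A match is a run of letters, not a measured binding site.

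Expression is given in FPKM, a fragment count scaled to gene length and to the library's total, so levels of different genes can be set side by side. Deposited values summed to between 87162 and 88738 FPKM in the vector libraries and between 127768 and 128538 in the overexpression libraries, a ratio of 1.46, and the depth behind them is unknown. Differences are on the log2(FPKM + 0.5) scale, overexpression minus vector, which understates the change of low genes, and come from limma over the 9694 entries with a mean of at least 1 FPKM. All 10 genes passed that filter. The median entry was higher by 0.27 log2 in the overexpression libraries (1.2-fold), and a difference called relative is relative to it. In limma 37.4% of tested entries were higher and 11.9% lower at an adjusted p of 0.05. Of the 10 genes, 3 were higher (GPX1, GPX4 and TXN), 1 was lower (SLC7A11) and 6 did not pass, so the share on each side lies near that of the whole table. Of the epithelial markers, KRT18 (62.5 to 105 FPKM) and an entry that joins KRT8 and KRT78 (14.8 to 27.8 FPKM) were present in every library and lower with overexpression (limma adjusted p = 0.0219 and 0.0096), the KRT18 call being lost without any one of 4 libraries (vector replicates 1 and 3, overexpression replicates 1 and 2). KRT19 was higher, at 24 ± 1.07 against 3.71 ± 1.95 FPKM (SD, n = 3, limma adjusted p = 0.000654), and EPCAM and CDH1 were at most 0.14 FPKM. The mesenchymal markers did not move together. VIM was higher, at 577 ± 49.5 against 229 ± 27.5 FPKM (SD, n = 3, limma adjusted p = 0.000195). COL1A1 was higher, at 1.67 ± 0.28 against 0.583 ± 0.297 FPKM (limma adjusted p = 0.00913). COL1A2 was lower, at 13.1 ± 2.69 against 18.1 ± 0.465 FPKM (limma adjusted p = 0.0339), and DCN was at most 0.01 FPKM. The COL1A2 call was lost without any one vector replicate and without overexpression replicate 1 or 3. The blood markers PTPRC and CD3E and the acinar genes PRSS1, CPA1 and AMY2A were listed at 0 in all 6 libraries. CD14 ran from 0 to 0.48 FPKM with the vector and from 0.62 to 1.37 FPKM with overexpression, and the endothelial marker CDH5 from 0.14 to 0.27 and from 0.48 to 0.64 FPKM. The endothelial markers PECAM1 and VWF were at most 0.05 and 0.03 FPKM. The epithelial marker KRT7 ran from 0.18 to 1.03 FPKM with the vector and from 0.11 to 0.49 FPKM with overexpression. What part these marker differences play in the results below was not tested.

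**Figure D1:**
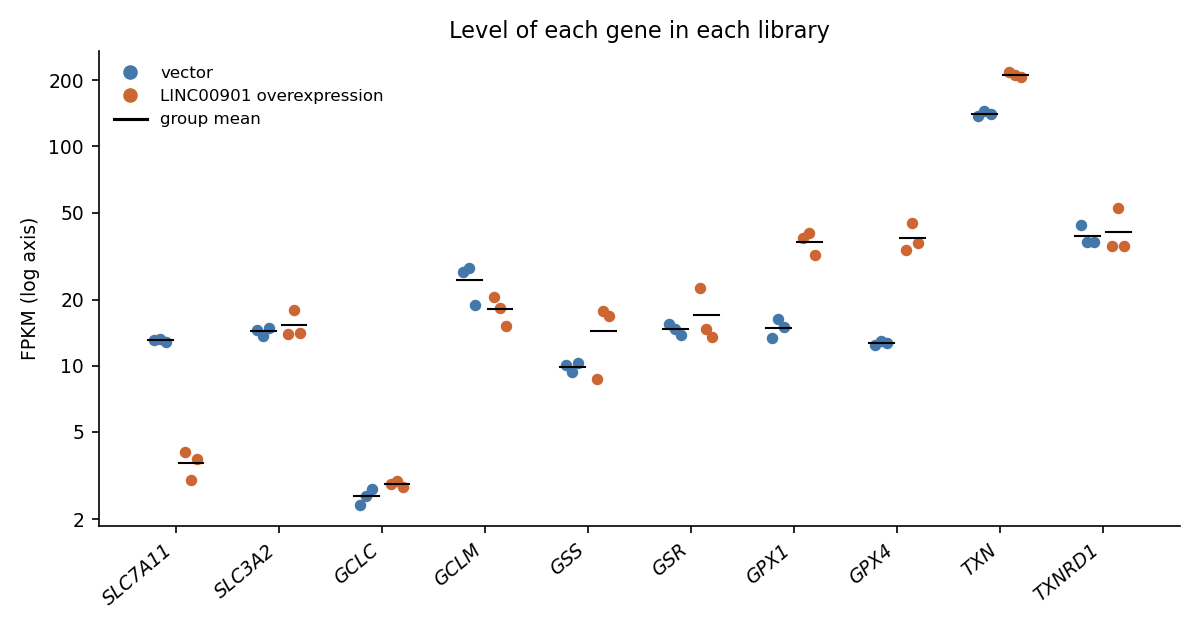
FPKM (log axis) of each of the 10 genes in the 3 vector libraries (blue) and the 3 LINC00901 overexpression libraries (orange), with black lines at the group means. SLC7A11 falls from 12.85 to 13.24 FPKM with the vector to at most 4.06 FPKM with overexpression, GPX1 and GPX4 lie at 31.98 FPKM or more in every overexpression library, and TXN is the most abundant gene in all 6.

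The order of levels differed between the groups. In the vector libraries TXN was highest at 141 ± 3.5 FPKM (SD, n = 3), followed by TXNRD1 at 39.1 ± 4.12 and GCLM at 24.5 ± 4.91, and the ranges of these 3 did not overlap. Then came a tight group from GPX1 (14.9 ± 1.47 FPKM) through GSR, SLC3A2 and SLC7A11 to GPX4 (12.7 ± 0.255), in which neighbours in the order overlapped in range, except that every SLC3A2 value was above every SLC7A11 value. GSS (9.9 ± 0.5 FPKM) and GCLC (2.55 ± 0.21) were lowest. In the overexpression libraries GPX4 (38.2 ± 5.66 FPKM) and GPX1 (36.8 ± 4.27) stood beside TXNRD1 (40.9 ± 9.86) with overlapping ranges, and SLC7A11 (3.6 ± 0.545) had moved to the ninth place, just above GCLC (2.89 ± 0.08).

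Of the 2 chains of the cystine importer, the light chain fell and the heavy chain did not pass the test. SLC7A11, which binds and carries cystine, stood at 13.05, 13.24 and 12.85 FPKM with the vector and at 4.06, 3 and 3.75 FPKM with LINC00901 overexpression. Every overexpression value lies below every vector value, a fall of 3.62-fold between the group means. The log2 difference was -1.73 (SE 0.12, limma adjusted p = 0.000155), and -1.94 on median-centred values, while the median entry moved the other way. SLC3A2, the heavy chain that brings SLC7A11 and other light chains to the plasma membrane, stood at 14.61, 13.65 and 14.89 FPKM with the vector and at 13.98, 17.87 and 14.14 FPKM with LINC00901 overexpression. The groups overlap, and overexpression replicate 2 is the high value. Its log2 difference was 0.08, with a 95% interval from -0.19 to 0.36 and a limma adjusted p of 0.585. Exons of SLC7A11 overlap those of SLC7A11-AS1 on the other strand, and whether counting used strand is not given in the sources used here, so reads of the pair cannot be told apart.

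A ratio of 2 genes within a library is changed little when the whole library is divided by 1 factor, but it can move under quantile normalization or the length correction. SLC7A11 to SLC3A2 stood at a log2 ratio of -0.13 ± 0.08 (SD, n = 3) in the vector libraries, near equal levels, and at -1.95 ± 0.39 in the overexpression libraries. The 3 overexpression ratios, -1.67, -2.39 and -1.78, were all below the 3 vector ratios. The difference between the groups was -1.81 on the deposited values, -1.69 with quantile normalization and -1.45 with the length correction. No test was made on these ratios, since the pairs were chosen with the values known.

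**Figure D2:**
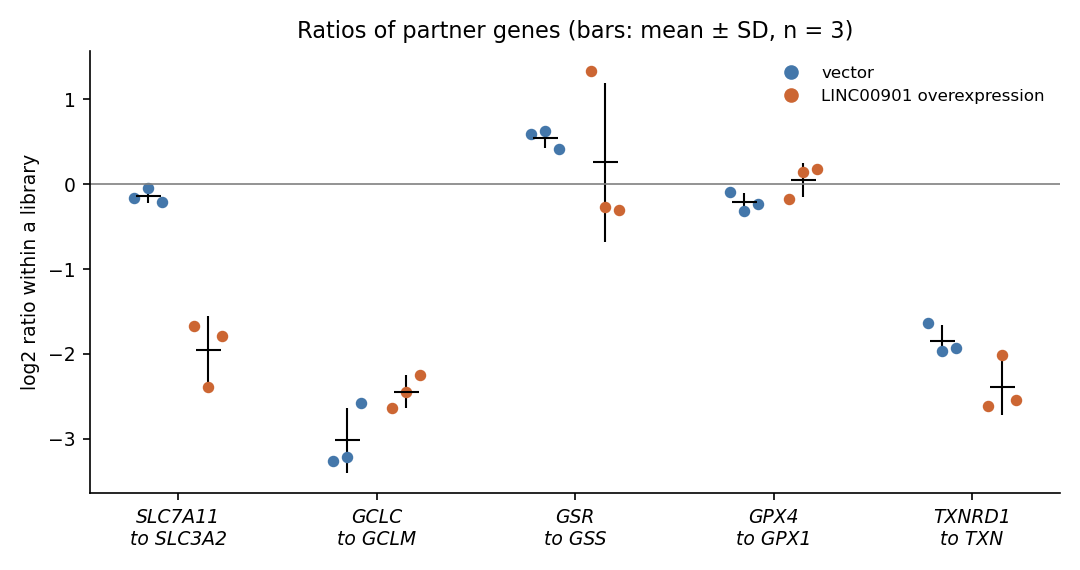
Log2 ratio of 2 partner genes within each library, computed on FPKM + 0.5, for 5 pairs. Points are libraries (blue vector, orange overexpression) and bars are mean ± SD (n = 3). On the deposited values the groups do not overlap for SLC7A11 to SLC3A2 and for TXNRD1 to TXN (the latter difference turns sign with the length correction), and a single overexpression library stands apart in GSR to GSS.

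None of the 3 genes of glutathione synthesis, nor the reductase, passed the test. GCLC, the catalytic subunit of the rate-limiting ligase, stood at 2.33, 2.56 and 2.75 FPKM with the vector and at 2.89, 2.97 and 2.81 FPKM with LINC00901 overexpression. The groups do not overlap, but they are separated by little: the log2 difference was 0.16 (95% interval -0.11 to 0.42, limma adjusted p = 0.279), which is below that of the median entry. GCLC exons overlap the annotated gene AL033397.1 on the same strand. GCLM, the modifier subunit that raises the activity of the ligase, stood at 26.74, 27.88 and 18.86 FPKM with the vector and at 20.64, 18.41 and 15.23 FPKM with LINC00901 overexpression. The groups overlap through vector replicate 3, which is the lowest vector value. The log2 difference was -0.42 (95% interval -0.84 to 0.00, limma adjusted p = 0.0911) and -0.68 relative to the median entry. Without vector replicate 3 it was -0.59 (limma adjusted p = 0.0191), and it also passed on median-centred values (-0.63, limma adjusted p = 0.0303). The log2 ratio of GCLC to GCLM was -3.02 ± 0.39 (SD, n = 3) and -2.45 ± 0.20, with overlap.

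GSS, which makes glutathione from the dipeptide, stood at 10.13, 9.33 and 10.25 FPKM with the vector and at 8.70, 17.81 and 16.87 FPKM with LINC00901 overexpression. Overexpression replicate 1 is below all vector libraries and the other two are above them. GSS differed by 0.46 log2 (95% interval -0.15 to 1.07, limma adjusted p = 0.177). Without overexpression replicate 1 it was 0.78 (limma adjusted p = 0.00311). GSR stood at 15.47, 14.69 and 13.77 FPKM with the vector and at 22.71, 14.75 and 13.58 FPKM with LINC00901 overexpression. Here the same library, overexpression replicate 1, is the high one. GSR differed by 0.18 log2 (95% interval -0.27 to 0.62, limma adjusted p = 0.467). The log2 ratio of GSR to GSS was 1.33 in overexpression replicate 1 and -0.26 and -0.30 in replicates 2 and 3, against 0.54 ± 0.12 (SD, n = 3) in the vector libraries.

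Both glutathione peroxidases were higher in the overexpression libraries. GPX1, the abundant cytosolic enzyme that reduces hydrogen peroxide, stood at 13.33, 16.26 and 15.07 FPKM with the vector and at 38.24, 40.15 and 31.98 FPKM with LINC00901 overexpression. The groups are well apart, with a 2.47-fold higher mean. GPX1 differed by 1.27 log2 (SE 0.12, limma adjusted p = 0.000349), or 1.01 relative to the median entry. GPX4, which reduces lipid peroxides in membranes and so holds back ferroptosis, stood at 12.49, 13.00 and 12.74 FPKM with the vector and at 33.74, 44.58 and 36.33 FPKM with LINC00901 overexpression. It had the largest rise of the 10 genes, a 3-fold higher mean with no overlap. GPX4 differed by 1.54 log2 (SE 0.11, limma adjusted p = 0.000179), or 1.27 relative to the median entry. The log2 ratio of GPX4 to GPX1 was -0.21 ± 0.11 (SD, n = 3) in the vector libraries and 0.05 ± 0.20 in the overexpression libraries, with overlap. The genome holds 2 annotated pseudogenes named after GPX1, and reads shared with them could be split by the counting.

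Thioredoxin was higher on the deposited values and its reductase was not. TXN stood at 137.50, 144.50 and 140.86 FPKM with the vector and at 217.81, 211.86 and 207.10 FPKM with LINC00901 overexpression. The groups do not overlap, with a 1.51-fold higher mean close to the ratio of the library sums. The log2 difference was 0.59 (SE 0.05, limma adjusted p = 0.000308), or 0.32 relative to the median entry, and 7 annotated pseudogenes are named after TXN. TXNRD1, the cytosolic selenoenzyme that reduces thioredoxin, stood at 43.83, 36.78 and 36.62 FPKM with the vector and at 35.22, 52.26 and 35.16 FPKM with LINC00901 overexpression. Overexpression replicate 2 holds the highest value of all 6 libraries and the other two the lowest, so the groups overlap. The log2 difference was 0.04 (95% interval -0.36 to 0.44, limma adjusted p = 0.846). The log2 ratio of TXNRD1 to TXN was -1.84 ± 0.18 (SD, n = 3) in the vector libraries and -2.39 ± 0.33 in the overexpression libraries, with no overlap. That difference of -0.54 did not hold under other processing, where it was -0.24 with quantile normalization and 0.06 with the length correction.

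Because the library sums differ, each difference was also read under other scalings, and 3 genes kept their call in all of them. SLC7A11 was lower and GPX1 and GPX4 were higher on median-centred values, on quantile-normalized values, after removal of a trend on exon length, and with all libraries scaled to the same sum. SLC7A11 ranged from -1.74 to -2.24 log2 over these, GPX1 from 0.67 to 1.07 and GPX4 from 0.88 to 1.33. TXN did not hold: it was 0.38 on median-centred values (limma adjusted p = 0.0018), -0.35 on quantile-normalized values (limma adjusted p = 0.00263), -0.19 after removal of the length trend (limma adjusted p = 0.0335) and 0.04 with equal sums (limma adjusted p = 0.525). GCLM was lower under each of the 4, from -0.59 to -0.95. On median-centred values 24.0% of entries were higher and 19.2% lower, and 3 of the 10 genes were higher and 2 lower. With equal sums 11.8% were higher and 34.8% lower, the median entry moved to -0.23, and 2 of the 10 genes were higher (GPX1, GPX4) and 4 lower (SLC7A11, SLC3A2, GCLM and TXNRD1). By range alone, the groups did not overlap for 5 of the 10 genes, with GCLC, GPX1, GPX4 and TXN higher and SLC7A11 lower, against 44.9% of entries higher and 15.6% lower.

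**Figure D3:**
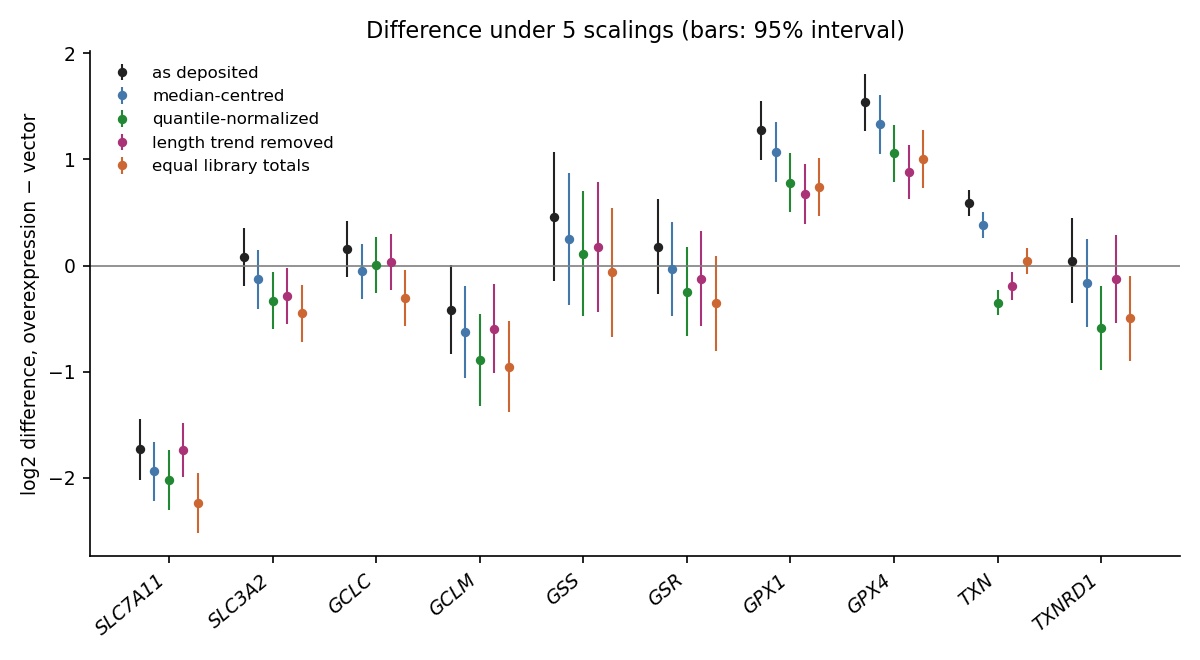
Log2 difference (overexpression minus vector) of each gene on the deposited values and under 4 other scalings, with 95% intervals from limma. SLC7A11 stays below 0 and GPX1 and GPX4 stay above 0 throughout, while TXN runs from 0.59 to -0.35.

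Exon length moved with the differences over the whole table. Tested entries were sorted by exon length into 10 bins of 882 or 883 entries. In the bin of the shortest the median log2 difference was 0.71, and in the bin of the longest it was -0.03. GPX1, GPX4 and TXN, with 1430, 1232 and 869 exonic bases, all lie in the shortest bin. There, GPX1 and GPX4 lie above the bin's median, and TXN lies below it. SLC7A11, with 9645 exonic bases, lies in the longest bin and far below its median. After removal of the length trend GPX4 was higher by 0.88 log2 and GPX1 by 0.67, against 1.54 and 1.27 on the deposited values. SLC7A11 then differed by -1.74 log2, against -1.73. What part length plays in these differences was not tested beyond the removal of the trend. Expression level moved with the differences too. In 10 bins by mean level, the median log2 difference ran from 0.06 in the lowest bin to 0.62 in the highest. GPX1, GPX4, TXN, GCLM and TXNRD1 all lie in the highest level bin. There, GPX1 and GPX4 lie above the bin's median, and TXN, TXNRD1 and GCLM lie below it. What part level plays was not tested.

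**Figure D4:**
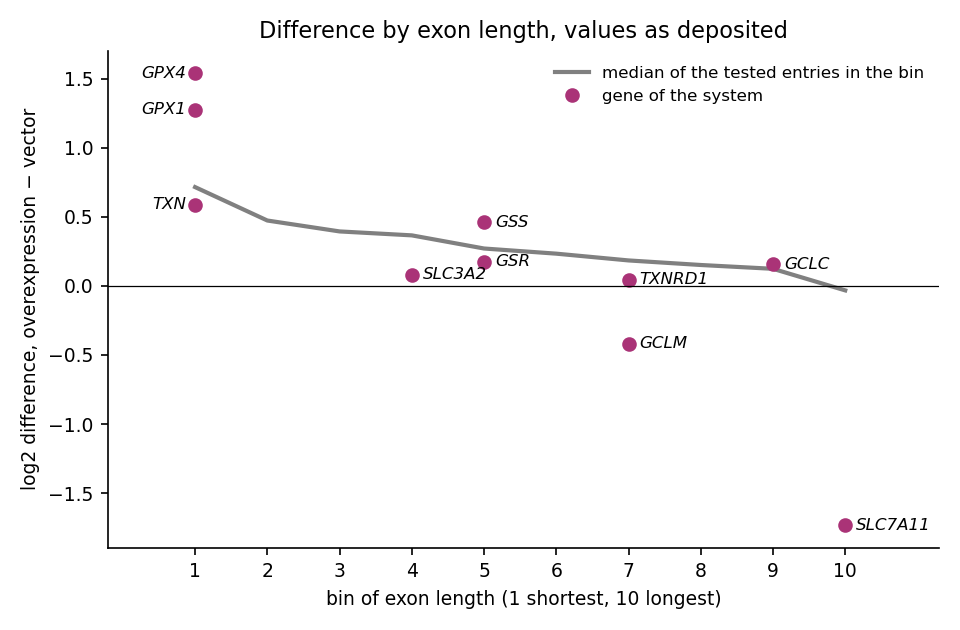
Log2 difference (overexpression minus vector) of the 10 genes on the deposited values, against the exon length bin each falls in (1 shortest, 10 longest), with the median of all tested entries of each bin as a line. The line runs from 0.71 in bin 1 to -0.03 in bin 10, GPX4 and GPX1 lie above it and SLC7A11 lies far below it.

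Around these 10 genes, 13 lists of 165 genes that feed, use or regulate the system were read from the same fit. The lists gave 161 entries, of which 135 were tested. Of those 75 were higher and 7 lower, with a median of 0.43 log2 against 0.27 for all tested entries. On median-centred values 54 were higher and 12 lower, and with equal sums 37 and 30, so the balance between rises and falls in these lists rests on the scaling. An entry that joins a listed gene with other names was counted for the listed gene, and the counts were not repeated without such entries. The lists were written from textbook function with earlier results known, and their counts are descriptions. Each is to be read beside the shares of all tested entries. These were 37.4% higher and 11.9% lower on the deposited values, 24.0% and 19.2% on median-centred values, and 11.8% and 34.8% with equal sums.

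Other transporters that pair with SLC3A2 or carry cysteine, and enzymes that use cysteine, were read next. Among other light chains that pair with SLC3A2, 2 of 5 were tested. SLC7A5, which carries large neutral amino acids, stood at 13.99, 13.48 and 14.22 FPKM against 18.38, 18.74 and 18.72 FPKM in the overexpression libraries (limma adjusted p = 0.00428). It was higher on the deposited values by 0.41 log2. It did not pass on median-centred or quantile-normalized values, after removal of the length trend or with equal sums, where its log2 difference was -0.12. Of 6 tested genes of cysteine entry and use, 3 were lower and 1 higher. SLC1A1, a glutamate and cysteine transporter, fell from 2.40 ± 0.33 to 1.22 ± 0.175 FPKM (SD, n = 3, limma adjusted p = 0.0065). SLC1A4, a transporter of alanine, serine and cysteine, fell from 3.42 ± 0.56 to 1.69 ± 0.144 FPKM (SD, n = 3, limma adjusted p = 0.00388). MPST, which takes sulfur from mercaptopyruvate, was higher at 4.09 ± 0.528 against 1.98 ± 1.28 FPKM (SD, n = 3, limma adjusted p = 0.0428), and lost the call when any one of 5 libraries was left out (vector replicates 1 and 3 and all 3 overexpression replicates), with no filter, and under each of the 4 other scalings (limma adjusted p from 0.0885 to 0.234).

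Cells can also make cysteine from methionine by transsulfuration. Of 8 tested genes of the methionine cycle and transsulfuration, 5 were higher and 0 lower, and 3 did not pass. On median-centred values the split was 5 higher and 2 lower. It was 4 and 2 with quantile normalization and after removal of the length trend, and 3 and 3 with equal sums. CTH, the enzyme that releases cysteine from cystathionine, stood at 2.47, 3.09 and 2.33 FPKM with the vector and at 8.41, 9.12 and 9.52 FPKM with LINC00901 overexpression. All overexpression values are above all vector values, a 3.43-fold higher mean, with a relative log2 difference of 1.35 (limma adjusted p = 0.000195). CBS, which makes cystathionine, was higher at 9.36 ± 1.04 against 4.48 ± 1.38 FPKM (SD, n = 3, limma adjusted p = 0.00909), a call lost after removal of the length trend and with equal sums. AHCY, which hydrolyses S-adenosylhomocysteine, was higher at 24.2 ± 3.21 against 12.3 ± 1 FPKM (SD, n = 3, limma adjusted p = 0.000995).

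Of 11 tested genes that degrade or carry glutathione, 4 were higher and 1 lower, with a median of 0.09 log2 against 0.27 for all tested entries. Among the 4 is an entry that joins GGT1 with SNRPD3. With equal sums 2 were higher and 5 lower. CHAC1, which cleaves glutathione in the cytosol, was higher at 1.86 ± 0.316 against 0.52 ± 0.219 FPKM (SD, n = 3, limma adjusted p = 0.00309). LAP3, an aminopeptidase that can split the cysteine and glycine dipeptide, was higher at 17.3 ± 0.404 against 8.38 ± 0.322 FPKM (SD, n = 3, limma adjusted p = 0.000209). GGT7, of the gamma-glutamyltransferase family, fell from 2.27 ± 0.466 to 1.23 ± 0.136 FPKM (SD, n = 3, limma adjusted p = 0.0153), a call lost without overexpression replicate 3. Of 12 tested glutathione transferases and glyoxalases, which attach or use glutathione, 8 were higher and 0 lower on the deposited values. After removal of the length trend 2 of 11 were higher and 1 lower. GSTO1 was higher at 44.8 ± 2.67 against 19.0 ± 2.60 FPKM (SD, n = 3, limma adjusted p = 0.000351). GSTP1 was higher at 51.8 ± 8.55 against 24.6 ± 3.28 FPKM (limma adjusted p = 0.00149) and MGST2 at 3.44 ± 0.545 against 1.33 ± 0.479 FPKM (limma adjusted p = 0.00511), and both lost the call after removal of the length trend.

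Other peroxidases, catalase and the superoxide dismutases remove peroxide and superoxide beside GPX1 and GPX4. Of 12 tested genes of this kind, 8 were higher and 0 lower, and on median-centred values 6 and 0. After removal of the length trend 5 of 11 were higher and 3 lower. PRDX5, a peroxiredoxin of mitochondria, peroxisomes and cytosol, stood at 13.56, 11.85 and 15.21 FPKM with the vector and at 71.50, 76.50 and 77.50 FPKM with LINC00901 overexpression, a 5.55-fold higher mean (limma adjusted p = 3.77e-05). The means of GPX4 and GPX1 were 3-fold and 2.47-fold higher. PRDX2, a cytosolic peroxiredoxin recycled by thioredoxin, was higher at 55.7 ± 3.48 against 25.6 ± 3.55 FPKM (SD, n = 3, limma adjusted p = 0.000439). SOD1, which turns superoxide into hydrogen peroxide, was higher at 135 ± 7.01 against 57.6 ± 3.72 FPKM (SD, n = 3, limma adjusted p = 0.000109). The other glutathione peroxidases tested, GPX2, GPX3 and GPX8, did not pass, with log2 differences of -0.09, -0.16 and 0.76.

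Of 17 tested thioredoxins, glutaredoxins and reductases other than TXN and TXNRD1, 9 were higher, 0 lower and 8 did not pass. On median-centred values 7 were higher and 3 lower, and with equal sums 4 and 5. TXNIP, the protein that binds and inhibits thioredoxin, stood at 14.23, 13.86 and 15.40 FPKM with the vector and at 71.10, 89.94 and 84.88 FPKM with LINC00901 overexpression, a 5.65-fold higher mean (limma adjusted p = 3.77e-05). GLRX5, a mitochondrial glutaredoxin of iron-sulfur cluster assembly, stood at 2.71, 0.75 and 0.41 FPKM against 17.74, 21.68 and 21.79 FPKM (limma adjusted p = 0.000739). All overexpression values of both genes lie above all vector values, and for GLRX5 the vector libraries differ widely among themselves. MSRB1, a selenoprotein that reduces methionine sulfoxide, was higher at 5.34 ± 0.524 against 2.27 ± 0.57 FPKM (SD, n = 3, limma adjusted p = 0.00266). The mitochondrial reductase TXNRD2, at 2.87 ± 0.136 and 2.58 ± 0.132 FPKM, and TXNRD3, at 4.83 ± 0.843 and 5.45 ± 0.175 FPKM (SD, n = 3), did not pass on the deposited values, as TXNRD1 did not. TXNRD2 was lower on median-centred values (-0.34 log2, limma adjusted p = 0.0412) and with equal sums (-0.59, limma adjusted p = 0.00489). It did not pass with quantile normalization or after removal of the length trend (limma adjusted p = 0.077 and 0.0753).

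NADPH, the electron source of GSR and TXNRD1, is supplied by enzymes of which 11 of 12 tested were higher and 0 lower. On median-centred values and with equal sums 8 of the 12 were higher and 0 lower. Higher were the NADP-dependent isocitrate dehydrogenases, IDH1 of the cytosol at 24.5 ± 1.46 against 10.3 ± 0.832 FPKM (limma adjusted p = 0.000196) and IDH2 of mitochondria at 19.2 ± 0.864 against 8.20 ± 0.713 FPKM (limma adjusted p = 0.000213). NNT, the transhydrogenase of the inner mitochondrial membrane, did not pass, at 5.77 ± 0.0569 against 4.99 ± 0.545 FPKM (SD, n = 3).

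Selenoprotein synthesis, on which GPX1, GPX4 and TXNRD1 depend, showed no common direction. Of 9 tested genes 3 were higher and 1 lower, beside 37.4% and 11.9% of all tested entries. SEPHS2, which makes selenophosphate, was higher at 31.2 ± 3.26 against 16.9 ± 0.34 FPKM (SD, n = 3, limma adjusted p = 0.000623). EEFSEC, the elongation factor for selenocysteine, was higher at 5.42 ± 0.782 against 3.43 ± 0.731 FPKM (limma adjusted p = 0.0249). This call was lost on median-centred and on quantile-normalized values, after removal of the length trend and with equal sums. It was also lost without any one of vector replicates 1 and 2 and overexpression replicates 2 and 3. LRP8, a receptor for selenoprotein P, fell from 4.12 ± 0.274 to 1.94 ± 0.406 FPKM (SD, n = 3, limma adjusted p = 0.00296). Over the 25 genes annotated with a selenocysteine codon, a set chosen after values were seen, 20 were tested, 6 were higher (GPX1, GPX4, MSRB1, SELENOK, SELENOM and SEPHS2) and 1 was lower (SELENOI). Their median log2 difference was 0.10, below the 0.27 of all tested entries. The balance turned with the scaling: 5 were higher and 4 lower on median-centred values, 5 and 5 with quantile normalization, 4 and 4 of 18 with the length correction, and 5 and 7 with equal sums.

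Of 13 regulators known to act on SLC7A11, all tested, 7 were higher and 1 lower, and with equal sums 2 and 1. Among the 7 are entries that join KEAP1 with S1PR5 and OTUB1 with COX8A and AP000721, which cannot be assigned to KEAP1 or OTUB1 alone. An entry that joins MAFG with SIRT7 did not pass. MAFF and ATF3, also among the 7, had vector means of 0.65 and 0.713 FPKM and passed the filter only through the overexpression libraries. ATF4, an activator of SLC7A11 in amino acid shortage, stood at 35.00, 37.47 and 36.44 FPKM with the vector and at 72.22, 67.77 and 66.43 FPKM with LINC00901 overexpression (limma adjusted p = 0.000182). ATF4 was higher in the libraries in which SLC7A11 was lower. NFE2L2, which encodes NRF2, did not pass, at 5.06 ± 0.301 against 4.21 ± 0.39 FPKM (SD, n = 3, limma adjusted p = 0.112). MAFF, a small MAF partner of NRF2, was higher at 2.45 ± 0.309 against 0.65 ± 0.0954 FPKM (SD, n = 3, limma adjusted p = 0.000592). ARID1A, a chromatin remodeller known to support SLC7A11 transcription, fell from 2.97 ± 0.178 to 1.55 ± 0.122 FPKM (SD, n = 3, limma adjusted p = 0.00233).

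On the deposited values, other genes that ATF4 and NRF2 are known to activate were mostly higher or did not pass. Of 11 tested ATF4 targets of the amino acid response, 9 were higher and 0 lower, and after removal of the length trend 3 of 10 and 0. With equal sums 4 were higher and 0 lower. The filter left out STC2, which ran from 0.35 to 0.54 FPKM with the vector and from 0 to 0.13 FPKM with overexpression. CHAC1 and NUPR1 had vector means below 1 FPKM (0.52 and 0.867) and passed the filter only through the overexpression libraries. TRIB3, a pseudokinase, was higher at 8.77 ± 0.746 against 2.77 ± 0.26 FPKM (SD, n = 3, limma adjusted p = 0.000187). NUPR1, a stress-induced chromatin protein, was higher at 3.46 ± 0.521 against 0.867 ± 0.316 FPKM (SD, n = 3, limma adjusted p = 0.0011). An entry that joins DDIT3 and AC022506 was higher at 14.2 ± 4.98 against 3.59 ± 0.686 FPKM (SD, n = 3, limma adjusted p = 0.00144), and cannot be assigned to DDIT3 alone. Of 12 tested NRF2 targets outside the system 6 were higher and 1 lower on the deposited values. The split was 4 and 2 with quantile normalization and 5 and 4 with equal sums. The ferritin chains FTL (1429.7 ± 182 against 313 ± 22.9 FPKM, SD, n = 3, limma adjusted p = 4.35e-05) and FTH1 (244 ± 41.7 against 70.7 ± 7.08 FPKM, limma adjusted p = 0.000179) and the autophagy receptor SQSTM1 (36.9 ± 2.32 against 14.3 ± 0.917 FPKM, limma adjusted p = 0.000127) were higher. The target that fell on the deposited values was ABCC2, an exporter of glutathione conjugates, from 17.5 ± 0.55 to 11.9 ± 1.24 FPKM (SD, n = 3, limma adjusted p = 0.00454).

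Of 11 tested regulators of ferroptosis beside GPX4, 4 were higher, 0 lower and 7 did not pass. Among all tested entries 37.4% were higher and 11.9% lower. The list median was 0.21 log2, against 0.27 for all tested entries. On median-centred values 4 were higher and 0 lower. After removal of the length trend 1 of 9 was higher and 0 lower, and with equal sums 2 were higher and 1 lower. HSPB1, a small heat shock protein, was higher at 70.8 ± 2.76 against 22.9 ± 2.60 FPKM (SD, n = 3, limma adjusted p = 0.000109). An entry that joins ACSL4, which loads polyunsaturated fatty acids into phospholipids, with KCNE5 was higher at 16.9 ± 2.15 against 7.28 ± 0.845 FPKM (SD, n = 3, limma adjusted p = 0.000639). CISD1, an iron-sulfur protein of the outer mitochondrial membrane, was higher at 3.98 ± 0.649 against 1.93 ± 0.404 FPKM (limma adjusted p = 0.0052) and did not pass after removal of the length trend or with equal sums. AIFM2 and DHODH, which work beside GPX4 through coenzyme Q, did not pass, with log2 differences of 0.12 and 0.23.

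**Figure D5:**
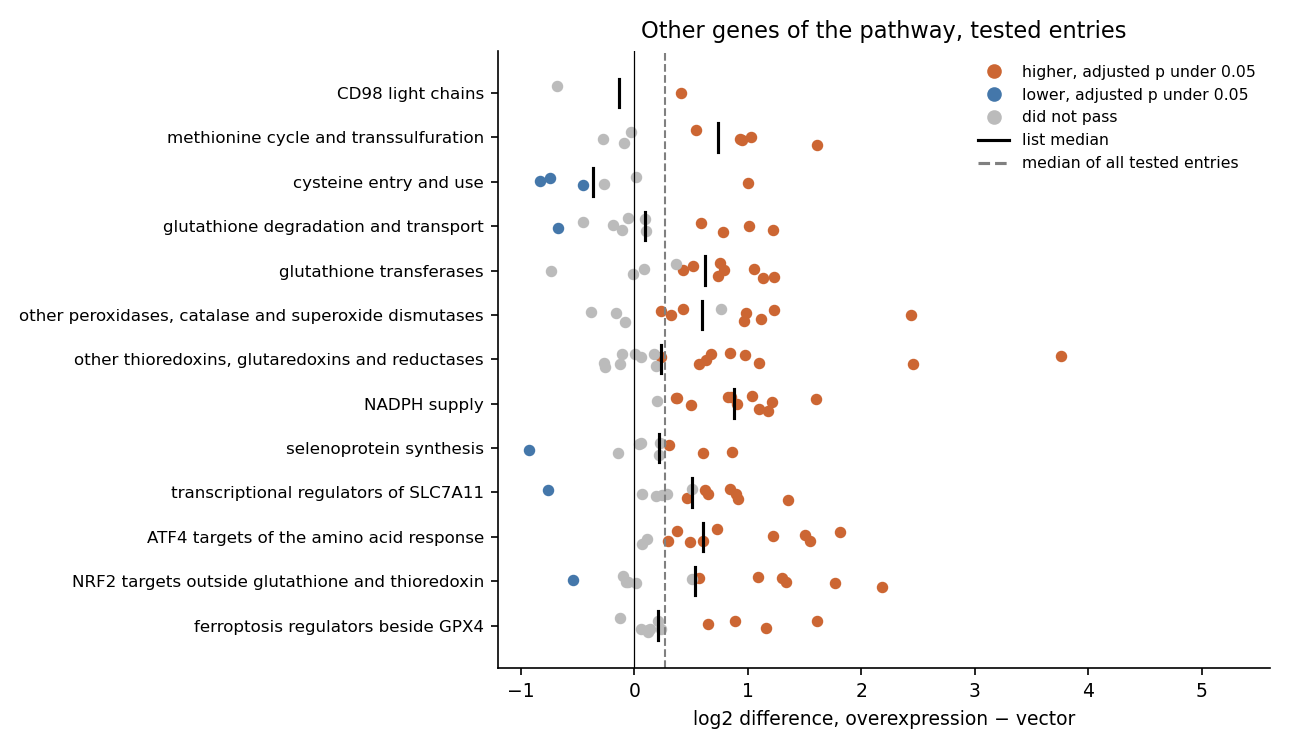
Log2 difference (overexpression minus vector) of every tested entry in the 13 lists on the deposited values. Orange points were higher and blue points lower at a limma adjusted p under 0.05, grey points did not pass, black bars are list medians and the dashed line is the median of all tested entries at 0.27. NADPH supply has 11 of 12 points in orange, and cysteine entry and use has 3 of the 7 blue points.

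For SLC7A11 and for GPX4, the entries with the most similar profile over the 6 libraries were found by the root mean square distance between mean-centred log2 values, among 9684 entries. For SLC7A11 these were an entry that joins ARHGAP11B and AC091057 (distance 0.09), TLR8 (0.10) and FGF1 (0.10). TLR8 stood at 7.74, 7.65 and 6.61 FPKM with the vector and at 2.04, 1.63 and 1.64 FPKM with LINC00901 overexpression. For GPX4 they were SLC2A3 (0.07), MMP1 (0.08) and RPS6 (0.08). RPS6 stood at 32.02, 32.37 and 33.53 FPKM with the vector and at 95.37, 106.29 and 99.02 FPKM with LINC00901 overexpression. The likeness describes 6 libraries in 2 groups and says nothing of shared control.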

How the data were processed

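RNA of 6 MIA PaCa-2 libraries was analysed, 3 with the vector and 3 with LINC00901 overexpression, grouped by the labels. The authors deposited FPKM values in a single table. The submitters' processing notes name cutadapt, FastQC, HISAT2 and the build hg19, without versions. Which tool made the FPKM values, and its strand setting, is not given in the sources used here. Of 18268 entries, 990 join several gene names. Among low values, 20.3% of ratios between vector libraries and 19.3% between overexpression libraries lay within 0.1 log2 of a power of 2. This check presumes libraries of like depth and unrounded values, so it cannot tell whether low values stand for whole reads. No count model was used, and depth is unknown. All 13 mitochondrially encoded genes are listed at 0, so a 0 can be a failed estimate.

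Values were taken as log2(FPKM + 0.5), entries with a mean of at least 1 FPKM were kept, and groups were compared in R 4.3.3 by limma 3.58.1 with a trend on intensity and Benjamini-Hochberg adjustment (two-sided, threshold 0.05). The fit was tested on simulated data. The members and lists were chosen with earlier results of these data known. Named are all 10 members, up to 3 passing entries of each list with the largest difference relative to the median entry, and the 3 entries most like SLC7A11 and the member with the largest rise. Not every such entry is reported here. Other genes named in the text were added after their values were seen. Exon lengths came from GENCODE 29 by symbol, for 91.0% of tested entries. That annotation and the RefSeq promoters are of another build than the deposited table, so they were joined by symbol only. Alternatives were pseudocounts of 1 and 0.1, a minimum mean of 5 or none, median centring, quantile normalization, a length correction, the replicate number as a block, limma without trend or with robust estimation, a threshold of 0.01, joined entries left out and each library left out. The fit with joined entries left out was read only for the 10 genes, none of which is joined. Equal library sums, and other scalings of the ratios, were added after seeing the data. Python 3.11.15, pandas 2.3.3, numpy 2.4.6 and matplotlib 3.10.9 were used.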

Additional observations from a re-analysis of the deposited data

How the results depend on the processing

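SLC7A11, GPX1 and GPX4 kept direction and call under all 18 refits, with limma adjusted p-values up to 0.00237, 0.0055 and 0.00213. Of all tested entries 3621 were higher and 1152 lower on the deposited values, 4773 in all. With a mean of at least 5 FPKM the counts were 2396 and 422 (2818 in all), at a threshold of 0.01 they were 2287 and 594 (2881), with median centring 2331 and 1866, with quantile normalization 1865 and 2024, with the length correction 1719 and 1670, and with equal library sums 1148 and 3395. Against 1 of the 10 genes lower, 2 were lower with median centring, 4 with quantile normalization, 3 with the length correction and 4 with equal sums, and 1 to 2 when a library was left out. Listed genes beside the 10 were 75 higher and 7 lower. Higher were 46 with quantile normalization, 38 with the length correction and 37 with equal sums, and lower were 1 with a mean of at least 5 FPKM, 12 with median centring, 20 with quantile normalization, 17 with the length correction and 30 with equal sums. The cause of these shifts was not tested.

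The sign of the log2 difference turned for TXN (-0.35 with quantile normalization, -0.19 with the length correction) and for genes listed here. With median centring SLC3A2 was -0.13, GCLC -0.052, GSR -0.033, TXNRD1 -0.16, AIFM2 -0.092, NNT -0.012 and TXNRD3 -0.038. With quantile normalization SLC3A2 was -0.33, GSR -0.25, TXNRD1 -0.59, SLC7A5 -0.018, NNT -0.024 and TXNRD3 -0.039. With the length correction SLC3A2 was -0.29, GSR -0.13, TXNRD1 -0.13, AIFM2 -0.068, SELENOK -0.064 and TXNRD3 -0.073. With equal sums SLC3A2 was -0.45, GCLC -0.31, GSS -0.064, GSR -0.36, TXNRD1 -0.50, SLC7A5 -0.12, AIFM2 -0.29, DHODH -0.16, NFE2L2 -0.25, NNT -0.30, SELENOK -0.020 and TXNRD3 -0.33. As libraries were left out, SLC3A2 ran from -0.031 (without overexpression replicate 2) to 0.14, TXNRD1 from -0.14 (without the same library) to 0.14 and GSR from -0.046 (without overexpression replicate 1) to 0.31, and GPX2 from -0.51 to 0.37. The log2 difference of the GSR to GSS ratio ran from -0.82 to -0.01 as libraries were left out, against -0.29 with all 6. With the length correction, chosen for the ratios after seeing the data, the difference of the SLC7A11 to SLC3A2 ratio was -1.45 and that of TXNRD1 to TXN 0.064, and with quantile normalization TXNRD1 to TXN was -0.24 and GCLC to GCLM 0.89.

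Same-numbered libraries showed no common deviation over the whole table. Their deviations from the group means correlated over 9694 entries at -0.037, -0.0057 and -0.005, against -0.0149 to 0.0206 for differently numbered libraries. The labels do not say what a replicate number marks, and these correlations cannot show whether same-numbered libraries were handled together. With the replicate number as a block 4227 entries passed, 3262 higher and 965 lower, and 2 of the 10 genes were lower, since GCLM then passed (limma adjusted p = 0.0272). The deposited values carry no depth, so the limit that depth sets on each gene is unknown.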
